A study of Mus musculus with 6 samples.

Results

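The vascular endothelial genes were Pecam1, Cdh5, Emcn, Vwf, Vegfa, Kdr, Flt1, Tek, Tie1 and Eng, 10 of the 19053 genes that the mRNA probes of the array could be named for. Members were found through the RefSeq accession that each mRNA probe carries. Together they had 18 of the 22464 mRNA probes, with 6 for Vegfa, 3 for Eng, 2 for Pecam1 and 1 for each of the other genes. RNA came from whole testes of male C57/BL6 mice that were 6 days old (neonatal testis) or 8 weeks old (adult testis). Each age had 3 biological replicates, each of pooled mice, with fewer adult than neonatal mice used in all, and read in 1 colour (Cy3) on an array of its own. The comparison of the ages asks how the signal of these genes in whole testis RNA differs between a testis without sperm formation and a mature testis.

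Endothelial cells line blood vessels. The growth factor VEGF-A is made mostly by the cells around a vessel and acts on the receptors Kdr and Flt1 of the endothelium, where Kdr carries most of the growth signal and Flt1 also acts as a trap for the ligand. The angiopoietins act through the receptor Tek, with Tie1 as its partner, in the stabilisation of vessels, and endoglin (Eng) is a co-receptor for ligands of the TGF-beta family. In the testis the vessels run through the interstitium beside Leydig cells and macrophages and do not enter the seminiferous tubules, which in the adult are filled with germ cells. Vegfa therefore stands apart from the other members, because it encodes the ligand and does not mark endothelial cells.

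Values are given as the normalized log2 signal: the background-subtracted signal was scaled to the 75th percentile of all probes on the same array and converted to log2, with a lower limit of -7.23. The log2 ratio is the adult minus the neonatal value as estimated by limma, in which arrays of the same replicate number form a pair, and SE is its standard error. Signals of different probes do not rank genes by the amount of RNA, so each probe was compared only between ages. Where the probe with the strongest signal of a list is named, it says what dominates a summed signal and nothing about abundance. A gene with several probes was counted by its brightest probe. Well above background on all 6 arrays were 17 of the 18 probes, and the exception was the probe of Vwf. Replicate 3 of both ages lay on slide 2 and the other 4 arrays on slide 1, so slide and replicate cannot be told apart for replicate 3. The scanner software marked 83.3% of the bright probes (upper 25% of the signal) as outliers on neonatal array 3, against 13.2% of the other probes. On adult array 3 these shares were 76.2% and 8.53%, and on the other 4 arrays they reached at most 24.5% and 5.89%. The neonatal spot of replicate 3 was marked in this way for 14 of the 18 member probes, so for these the test with outlier spots left out rests on replicate pairs 1 and 2. Values with the outlier spots kept are therefore given beside them.

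By limma all 10 members had a negative log2 ratio at an adjusted p of at most 0.05, although Vwf turned to 0.29 after the normexp background correction. Flt1 did not pass that p after normexp (-0.20, adjusted p = 0.354), and without the replicate block Flt1 and Vwf did not (adjusted p = 0.112 and 0.235). With no filter on dim probes 6 of the 10 passed it, and with the slide as the block 9, without Vwf. Of all 12833 genes tested, 44.9% were lower in adult testis and 30.2% higher by the adjusted p alone. The call asked for an absolute fold change of at least 5 as well, and 3 of the 10 members, Pecam1, Cdh5 and Eng, passed it as lower in adult testis, against 13.5% of all genes. No member was called higher, and 13% of all genes were. After normexp 1 member and 6.86% of all genes were called lower. On the log2 values that the authors deposited, 3 members and 20.4% of all genes were. A fold change of at least 2 was passed by 8 of the 10 members, all lower, where 35.9% of all genes were lower and 23.7% higher by that much. Flt1 and Vwf did not pass it, and Tek passed narrowly (2.04-fold). The median log2 ratio was -1.75 over the members and -0.36 over all genes tested. The normalized signal of all 3 adult arrays lay below that of all 3 neonatal arrays for 8 members and for 44.4% of all genes. Within slide 1 (pairs 1 and 2) the median difference of the members was -1.77 and -1.67, and on slide 2 (pair 3) it was -1.63. The signal is scaled within each array, so it gives a level relative to the other RNA of the testis and not a number of cells. In whole tissue, fewer endothelial cells, less RNA per endothelial cell and more RNA from other cells cannot be told apart. The part of each in the difference was not tested.

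**Figure D1:**
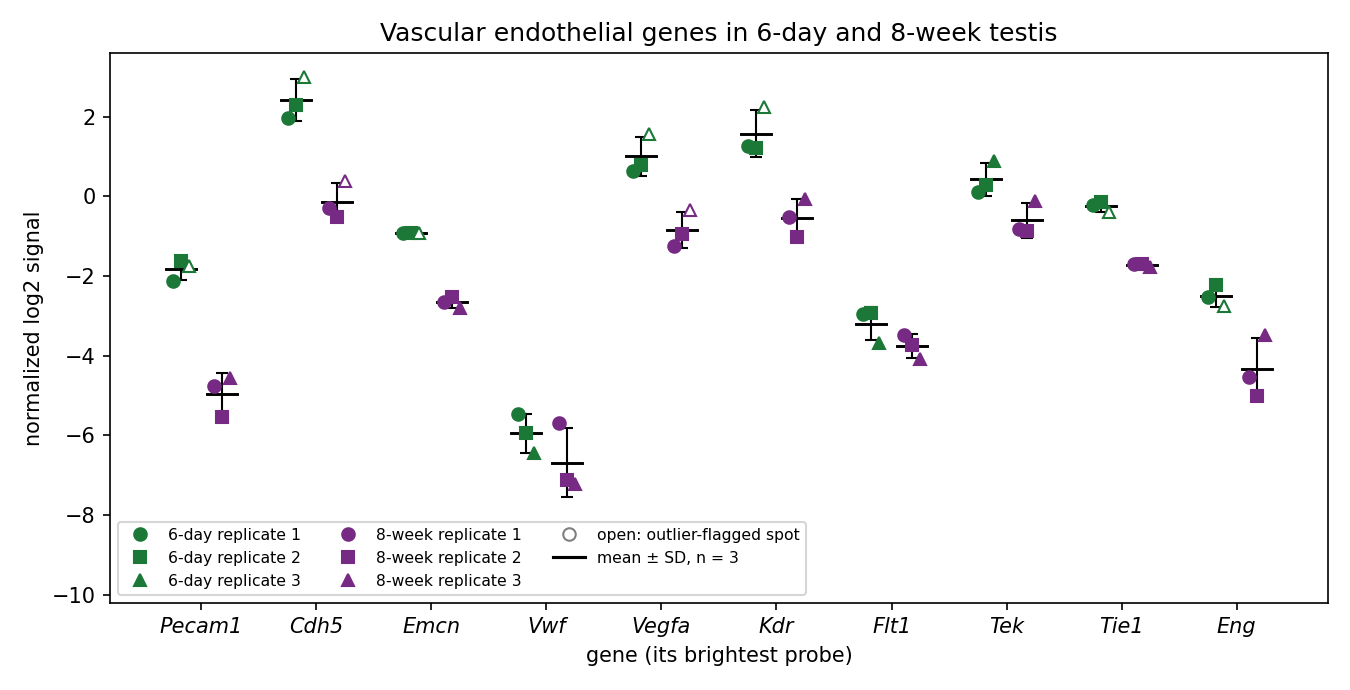
Normalized log2 signal (y axis) of the brightest probe of each of the 10 genes on the 3 neonatal (green, 6 days) and 3 adult (purple, 8 weeks) arrays, with bars for the mean ± SD (n = 3) and open symbols for outlier spots. The ages are apart for 8 genes and overlap for Vwf and Flt1; levels of different genes cannot be compared.

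Of the 10 members Pecam1 differed most, although after the normexp background correction Cdh5 (-2.45) did. Pecam1 (CD31), an adhesion molecule at the contacts between endothelial cells, lies on chromosome 11 (chr11:106654213-106715281, GRCm38.p6). Its brightest probe (NM_001032378) read -2.14, -1.63 and -1.74 on neonatal arrays 1 to 3 and -4.76, -5.55 and -4.57 on adult arrays 1 to 3. Every adult array was far below every neonatal array, with the lowest value in adult replicate 2. Pecam1 fell 9.65-fold (log2 ratio -3.27, SE 0.39, adjusted p = 0.00607, pairs 1 and 2), and 8.70-fold with the outlier spot kept (adjusted p = 0.000846). The other probe (NM_008816) gave a log2 ratio of -3.25 (SE 0.42), so both probes of this gene were called. The size of the difference varied between pairs, from -2.62 in pair 1 to -3.92 in pair 2. After the normexp background correction the log2 ratio was -2.20, which is under 5-fold.

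Cdh5 encodes VE-cadherin, the cadherin of endothelial adherens junctions, and lies at chr8:104101613-104144504. Its signal was 1.96, 2.29 and 2.99 on the neonatal arrays and -0.28, -0.53 and 0.40 on the adult arrays. The array of replicate 3 was the highest at each age, and the ages did not overlap. Cdh5 fell 5.78-fold (log2 ratio -2.53, SE 0.21, adjusted p = 0.00267), and 5.87-fold with its 2 outlier spots kept (adjusted p = 0.000247). The 3 pairs gave -2.25, -2.82 and -2.60. The call lies close to 5-fold, and the fit with no filter on dim probes gave the same fold change at an adjusted p of 0.0529 (at most 0.11 over all alternatives).

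Emcn encodes endomucin, a sialomucin of capillary and venous endothelium, and lies at chr3:137341062-137431069. Its normalized log2 signal was -0.91, -0.92 and -0.91 on the neonatal arrays and -2.66, -2.52 and -2.80 on the adult arrays. Replicates differed far less than the ages, with an SD of 0.00473 among neonatal and 0.14 among adult arrays (n = 3 each). The log2 ratio of -1.67 (SE 0.14, adjusted p = 0.0028) is 3.19-fold and so under the 5-fold threshold. With the outlier spot kept it was 3.35-fold (adjusted p = 0.00035).

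Vwf encodes von Willebrand factor, the clotting protein stored in endothelial cells and platelets, and lies at chr6:125552948-125686679. It had a dim probe, which was well above background on the 3 neonatal arrays and on adult array 1 alone. The signal was -5.46, -5.94 and -6.45 on the neonatal arrays and -5.70, -7.13 and -7.23 on the adult arrays, where the last value is the floor. Adult replicate 1 lay within the neonatal range, so the ages overlapped. The log2 ratio was -0.73 (SE 0.22, adjusted p = 0.0369, 3 pairs), and the pairs ranged from -1.18 to -0.24. Since normexp turned its sign, no direction is drawn for Vwf.

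Among the VEGF genes, the ligand and its main receptor were both lower in adult testis, and neither reached 5-fold. Vegfa lies at chr17:46016993-46032377, and its 6 probes stand for transcript variants of the gene. The brightest (NM_001110266) read 0.65, 0.80 and 1.56 on the neonatal arrays and -1.25, -0.95 and -0.35 on the adult arrays. Both ages were highest in replicate 3, on slide 2, and did not overlap. The fold change was 3.53-fold (log2 ratio -1.82, SE 0.15, adjusted p = 0.00236), and 3.61-fold with the 2 outlier spots kept. The 6 probes lay close together, with log2 ratios between -2.13 and -1.82, and none was called.

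Kdr, the main VEGF receptor of endothelium, lies at chr5:75932827-75979072. It read 1.27, 1.21 and 2.25 on the neonatal arrays and -0.53, -1.01 and -0.07 on the adult arrays. The ages did not overlap, and the array of replicate 3 was again the highest of each age. Kdr was 4.02-fold lower in adult testis (log2 ratio -2.01, SE 0.18, adjusted p = 0.00323), and 4.33-fold with the outlier spot kept (adjusted p = 0.0004). It was called only on the log2 values that the authors deposited, where the log2 ratio was -2.37.

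Flt1, at chr5:147561604-147726438, differed least. It read -2.96, -2.94 and -3.68 on the neonatal arrays and -3.48, -3.72 and -4.08 on the adult arrays. Neonatal replicate 3 lay below adult replicate 1, so the ages overlapped, although the adult array was the lower in each of the 3 pairs (-0.51, -0.78 and -0.40). None of its spots was marked as an outlier. The log2 ratio was -0.57 (SE 0.13, adjusted p = 0.0158), or 1.48-fold, but -0.20 after normexp (adjusted p = 0.354). That Flt1 differed less than Kdr was not tested.

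The lists of VEGF ligands and receptors, which include Vegfa, Kdr and Flt1, gave 1 call, and 13.5% of all genes were called lower. Of 5 ligands, Vegfa among them, 3 were tested, and Vegfc, the ligand of lymphatic vessel growth, was the 1 gene called. Vegfc fell from -3.56 ± 0.09 to -6.08 ± 0.37 (mean ± SD, n = 3), log2 ratio -2.52, SE 0.15, adjusted p = 0.000442. It was well above background on a single adult array, and normexp gave -0.58. Pgf was not well above background anywhere. Among 5 receptors and co-receptors, 4 were tested and none was called by limma, with 3 at an unadjusted p of at most 0.05 (Kdr, Flt1 and Nrp1) and 2 lower by at least 2-fold (Kdr and Nrp1). Over all genes 35.9% were lower by that much. Nrp1, a co-receptor of VEGF and semaphorins, went from 2.00 ± 0.21 to -0.05 ± 0.36 (log2 ratio -2.01, SE 0.22, adjusted p = 0.00465). Flt4, the receptor of Vegfc, had a log2 ratio of -0.32 (adjusted p = 0.0701) and was chosen after its value was seen.

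In the angiopoietin system both receptors were lower in adult testis, Tek by 2.04-fold and Tie1 by 2.86-fold. Tek lies at chr4:94739086-94874976 and read 0.11, 0.28 and 0.89 on the neonatal arrays and -0.82, -0.88 and -0.10 on the adult arrays. No spot of Tek was marked as an outlier, and the ages did not overlap. The log2 ratio was -1.03 (SE 0.11, adjusted p = 0.00176), and the 3 pairs were alike, between -1.15 and -0.93. Tek fell under 2-fold without replicate 2 (-0.96). With no block it did so without neonatal array 3 (-0.79, adjusted p = 0.0675), adult array 1 (-0.92, adjusted p = 0.101) or adult array 2 (-0.89, adjusted p = 0.0963), and without neonatal array 2 the adjusted p was 0.0683. The direction of Tek thus held in every alternative, and its size and adjusted p did not. Tie1 lies on the same chromosome at chr4:118471191-118489849. It read -0.22, -0.14 and -0.40 on the neonatal arrays and -1.70, -1.69 and -1.77 on the adult arrays, a tight spread at both ages. Tie1 had a log2 ratio of -1.52 (SE 0.14, adjusted p = 0.00323), and -1.47 with the outlier spot kept.

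Of the 6 genes of the angiopoietin list, Tek and Tie1 among them, 5 were tested and none was called by limma, but 4 had an unadjusted p of at most 0.05 and 4 were lower by at least 2-fold. Over all genes 35.9% were lower by that much. The ligands Angpt1 and Angpt2, chosen after their values were seen, had log2 ratios of -2.02 (adjusted p = 0.00388) and -1.71 (adjusted p = 0.000406). Ptprb (VE-PTP), the endothelial phosphatase that acts on Tek and VE-cadherin, was also chosen after its values were seen. It read -1.25, -1.22 and -0.94 on the neonatal arrays and -0.93, -1.30 and -0.77 on the adult arrays (log2 ratio 0.11, adjusted p = 0.597), with overlap of the ages. Angpt4 was not well above background anywhere.

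Eng, the co-receptor endoglin, lies at chr2:32646595-32682669 and had 3 probes just inside and just outside the threshold. The brightest (NM_001146348) read -2.53, -2.22 and -2.75 on the neonatal arrays and -4.54, -5.02 and -3.47 on the adult arrays. Adult replicate 3 was the highest of its age but still below the neonatal arrays. With the neonatal outlier spot left out, this probe fell 5.28-fold (log2 ratio -2.40, SE 0.27, adjusted p = 0.005). With the spot kept, pair 3 differed by -0.72 alone and the fold change was 3.58-fold (adjusted p = 0.0164), which is not a call. The probe NM_001146350 had no outlier spot and gave 4.82-fold over 3 pairs (adjusted p = 0.00091), and NM_007932 gave 4.81-fold (adjusted p = 0.00197). The call of Eng thus depended on the probe and the outlier spot. Its 3 probes lay between -2.40 and -2.27 with outlier spots left out, and between -2.30 and -1.84 with them kept. Without the replicate block the log2 ratio of the brightest probe was -1.97 (adjusted p = 0.0214), again under 5-fold, and leaving out adult array 1 or 2 in that fit gave -1.87 or -1.63.

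**Figure D2:**
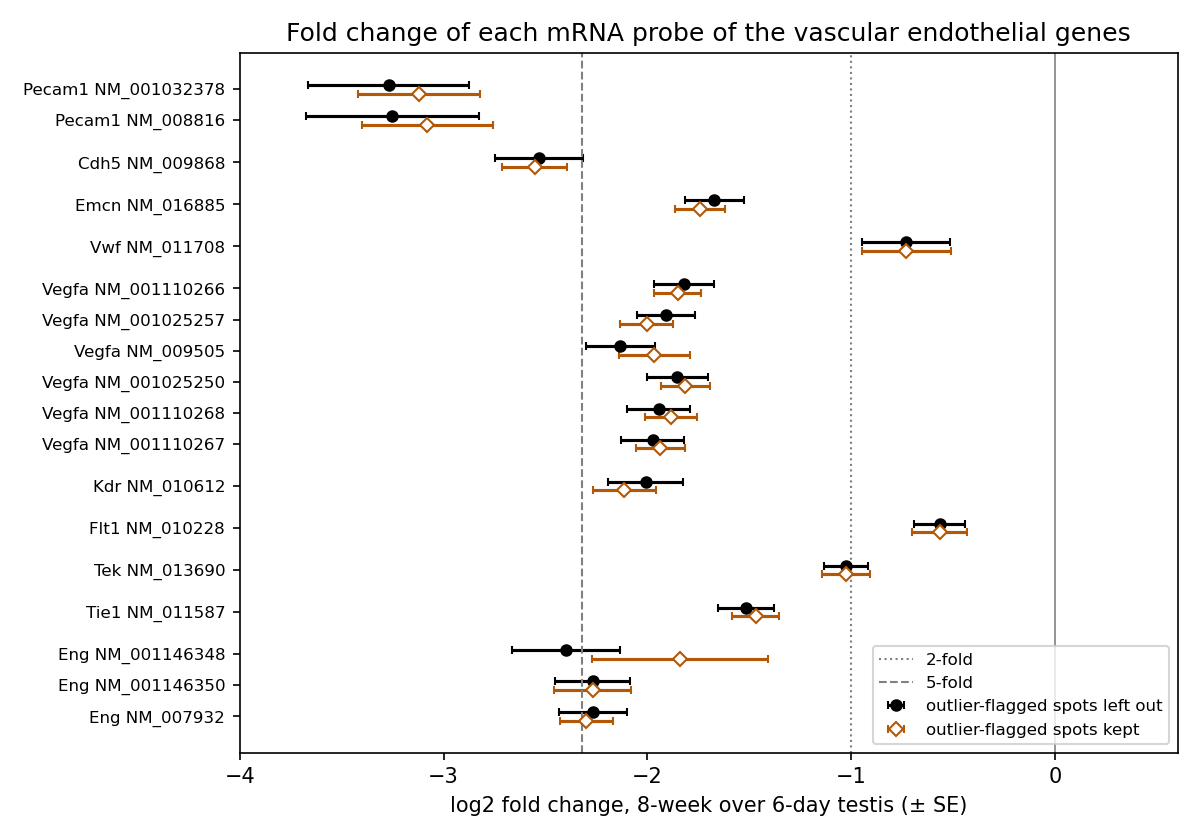
Log2 fold change of adult over neonatal testis (x axis, ± SE from limma) for each of the 18 mRNA probes, with outlier spots left out (black) or kept (orange) and lines at 2-fold and 5-fold. Both probes of Pecam1 and the probe of Cdh5 lie beyond the 5-fold line in both settings, the brightest probe of Eng in 1 of them, and all points are below 0 (Vwf was 0.29 after normexp, not drawn).

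Genes of endoglin, BMP and TGF-beta receptor signalling gave 4 calls among 9 tested (Eng included), all lower in adult testis, with a median log2 ratio of -2.04. Of all genes, 13.5% were called lower. A further 6 of the 15 genes were not tested. Acvrl1 (ALK1), the type I receptor that works with endoglin in endothelium, fell from 0.24 ± 0.32 to -3.46 ± 0.49. Its log2 ratio was -3.82 (SE 0.17, adjusted p = 0.000693), and -3.70 with the outlier spot kept. Id1 and Id3, target genes of this signalling that block differentiation factors, fell with log2 ratios of -3.57 and -2.87 (SE 0.14 and 0.15; adjusted p = 0.000558 and 0.000981). Both are expressed by many cell types of the testis as well, and the genes of this list are not limited to vessels. Bmp10 was not well above background anywhere.

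The 30 other pan-endothelial markers had a median log2 ratio of -1.54 over the 22 that were tested. In that list 5 genes were called lower, against 13.5% of all genes, and none higher, against 13%. By at least 2-fold 17 were lower, against 35.9% of all genes. With outlier spots kept, all 30 could be tested and 7 were called lower, against 15% of all genes, with a median of -1.93. Tmem100, a BMP-dependent membrane protein of endothelium, fell from 1.46 ± 0.24 to -1.68 ± 0.12 (log2 ratio -3.06, SE 0.24, adjusted p = 0.00216). Ramp2, the partner of the adrenomedullin receptor, fell with -2.94 (SE 0.18, adjusted p = 0.00138), and Robo4, a guidance receptor of endothelium, with -2.72 (SE 0.18, adjusted p = 0.00152). Procr, the protein C receptor, fell with -2.52 (SE 0.22, adjusted p = 0.00283) and was not called after normexp (-1.89). At an adjusted p of at most 0.05, 18 of the 22 tested were lower, against 44.9% of all genes. Cyyr1 (0.97, adjusted p = 0.0929) and Arhgef15 (0.43, adjusted p = 0.205), chosen after their values were seen, had positive log2 ratios. Nos3, chosen likewise, had -0.28 (adjusted p = 0.1085). The summed scaled signal of the list (signal over the 75th percentile, added over its genes) was 43.2, 48.7 and 50.5 on the neonatal arrays and 10.48, 10.1 and 9.99 on the adult arrays. The strongest signal was that of Cd34, with outlier spots on all 6 arrays.

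Endothelial transcription factors differed among themselves. Of 16 tested, 5 were called lower in adult testis and none higher, with a median of -1.42, and 3 were higher at an adjusted p of at most 0.05. Over all genes 13.5% were called lower, 13% were called higher and 30.2% were higher at that adjusted p. Foxc2 fell most, from 0.46 ± 0.28 to -3.55 ± 0.19 (log2 ratio -3.96, SE 0.15, adjusted p = 0.000525). The ETS factors Ets2, Ets1 and Elk3 fell with -3.44 (SE 0.18), -2.85 (SE 0.15) and -2.79 (SE 0.16), at adjusted p of 0.000946, 0.000943 and 0.00116; Elk3 was not called after normexp (-2.19). The tested genes that were higher, chosen after their values were seen, were Sox7 (0.91, adjusted p = 0.00213), Sox17 (0.68, adjusted p = 0.0377) and Gata2 (0.94, adjusted p = 0.00853), all under 2-fold. Klf4, with the strongest signal of the list, was left untested by outlier spots and was higher with them kept (2.21, 4.62-fold, adjusted p = 0.000571), also chosen after its value was seen. Erg was not well above background anywhere. Several of these factors, among them Ets2 and Klf4, are also made by cells other than endothelium.

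Arterial, venous and guidance genes gave 5 calls among 10 tested, all lower, with a median log2 ratio of -2.33. The share of all genes called lower was 13.5%. Ephb4, the receptor of venous endothelium, fell from 0.21 ± 0.27 to -4.24 ± 0.78 (log2 ratio -4.71, SE 0.23, adjusted p = 0.000901). The netrin receptor Unc5b fell with -3.73 (SE 0.24, adjusted p = 0.00152), and Gja5 (connexin 40), a gap junction protein of arteries, with -2.76 (SE 0.12, adjusted p = 0.000202). Pdgfb, the endothelial signal that recruits pericytes, fell with -2.48 (SE 0.11, adjusted p = 0.000226). Gja5 and Pdgfb rest on 3 pairs with no outlier spot. After normexp neither was called, with -1.02 for Gja5, and without the block Pdgfb was not called when neonatal array 3 or adult array 2 was left out (at weakest -2.14 over the alternatives).

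Genes of leukocyte adhesion did not move together. Of 9 tested, 2 were called lower in adult testis and none higher, with a median of -1.24. These calls stand against 13.5% of all genes lower and 13% higher. Icam1 fell from -4.24 ± 0.13 to -7.10 ± 0.23 (log2 ratio -2.85, SE 0.16, adjusted p = 0.000377), and was well above background on 1 adult array alone, with -0.84 after normexp. F11r (JAM-A), a junction protein that epithelia share, had -2.39 (SE 0.15, adjusted p = 0.00137) and -2.30 with the outlier spot kept, which is under 5-fold; 11 of its 26 alternatives ended the call. Selp (P-selectin), stored with von Willebrand factor in endothelial cells and platelets, was chosen after its values were seen. It read -3.49, -3.25 and -3.04 on the neonatal arrays and -1.85, -2.01 and -1.60 on the adult arrays (log2 ratio 1.45, adjusted p = 0.00109), which is also under 5-fold.

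**Figure D3:**
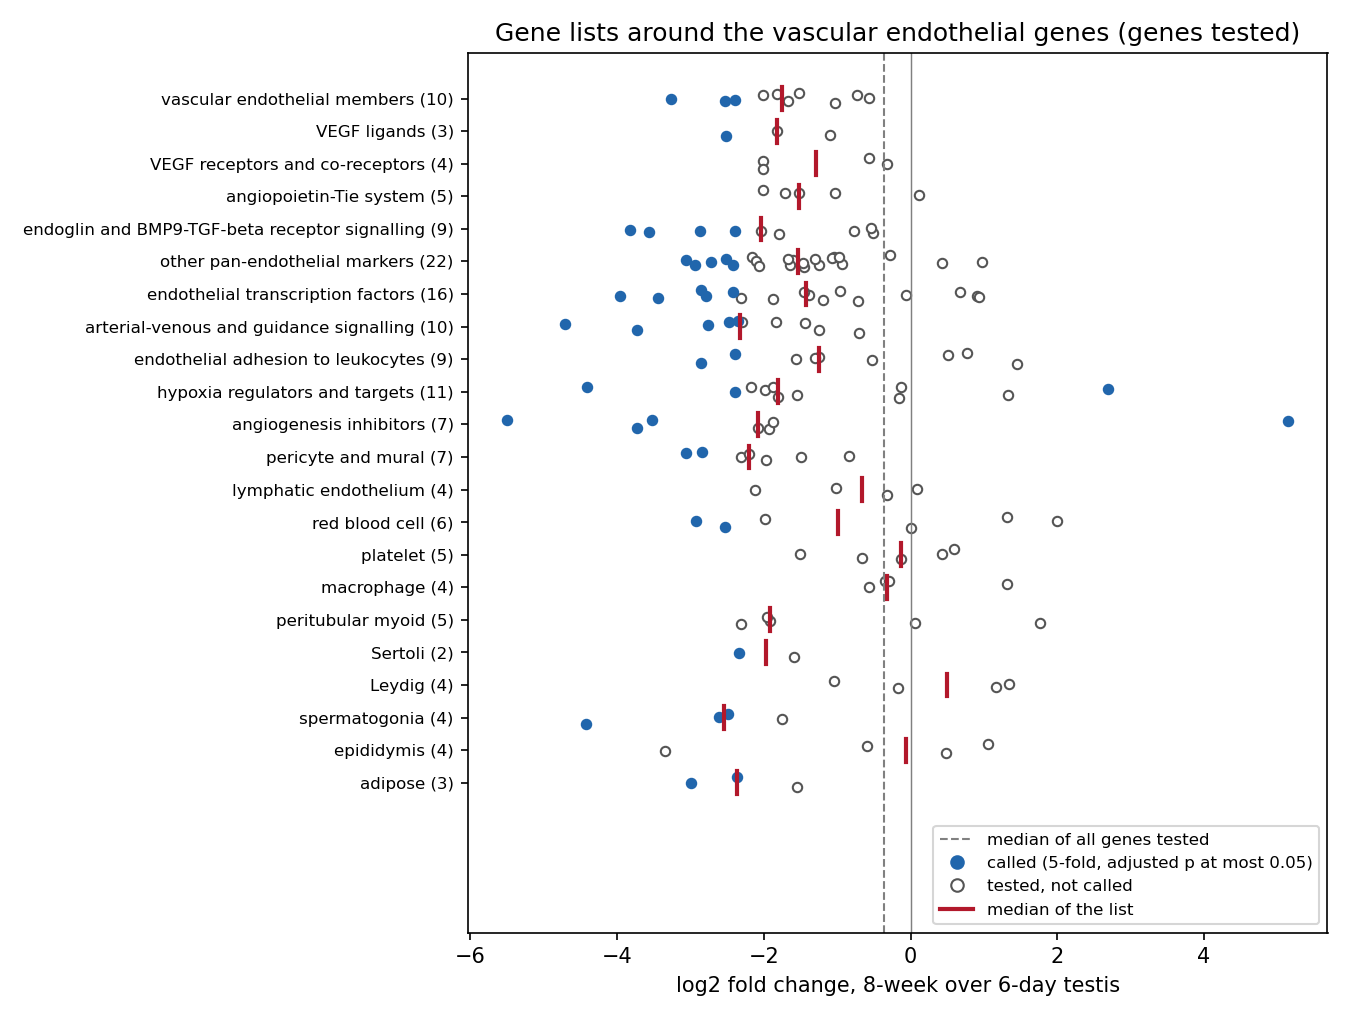
Log2 fold change of adult over neonatal testis (x axis) for each tested gene of the members and of 21 gene lists, with filled points for called genes, a red line for the median of each list and a dashed line for the median of all genes tested (-0.36). The spermatocyte and spermatid list is not drawn. The medians of the vessel pathway lists lie between -2.33 and -1.24. Those of the spermatogonial (-2.55), fat (-2.36), Sertoli (-1.97) and peritubular myoid (-1.91) lists lie in or below that range. Those of the macrophage (-0.32), platelet (-0.13), epididymis (-0.06) and Leydig (0.50) lists lie above the median of all genes.

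The cells around and inside the vessels were read from marker lists. Of 8 pericyte and mural genes 7 were tested, and Notch3 and Pdgfrb were called lower, with log2 ratios of -3.07 and -2.84 (SE 0.14 and 0.19; adjusted p = 0.000238 and 0.00155). The share of all genes called lower was 13.5%. The median of the list was -2.20, and its summed scaled signal was 7.12, 8.56 and 14.0 on the neonatal and 1.35, 1.26 and 2.64 on the adult arrays, with the strongest signal from Mcam. Without the block and adult array 2, Pdgfrb was not called (-2.23). Cspg4 (NG2) was not well above background on any adult array and its neonatal signal exceeded the adult by at least 2.99-fold, a bound in which each adult array takes its detection limit or, if larger, the signal of the probe. The lymphatic list had 5 genes with a probe and 4 tested, none called by limma, 2 at an unadjusted p of at most 0.05 and a median of -0.66. Its summed signal was 5.11, 7.14 and 2.64 on the neonatal and 1.06, 1.12 and 0.763 on the adult arrays. Pdpn, with the strongest signal, is shared with other cells and was not tested because of outlier spots; with these kept the log2 ratio was -3.20 (adjusted p = 0.000509).

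Blood cell markers also differed between the ages. Hbb-bt and Hbb-b2, beta-globin genes, were 2 of 6 tested red cell genes and fell with log2 ratios of -2.93 and -2.53 (SE 0.41 and 0.37; adjusted p = 0.00876 and 0.00964). Both were called lower, against 13.5% of all genes. The summed scaled signal of the red cell list was 84.1, 109 and 120 on the neonatal and 15.3, 35.6 and 31.5 on the adult arrays, with the strongest signal from Hba-a2. The list was split: Alas2, chosen after its value was seen, was higher in adult testis (1.99, adjusted p = 0.00547). Without the block and adult array 1, Hbb-b2 was not called (-1.86). None of 5 platelet genes was called by limma, 3 had an unadjusted p of at most 0.05, and the median was -0.13. Pf4 went from 2.62 ± 0.55 to 1.12 ± 0.52 (log2 ratio -1.50, adjusted p = 0.000525). Gp1ba, chosen after its value was seen, was higher (0.59, adjusted p = 0.0338), so the list did not move as a whole. The platelet list summed to 5.40, 5.31 and 10.2 on the neonatal and 2.16, 2.15 and 3.88 on the adult arrays, mostly from Pf4. Of 7 macrophage genes with a probe, 4 were tested and none was called by limma, 2 with an unadjusted p of at most 0.05, and the median was -0.32. C1qc, with the strongest signal of them, had -0.29 (adjusted p = 0.179). The list was split, since Cd163, chosen after its value was seen, had its largest change and was higher in adult testis (1.32, adjusted p = 0.00329), and Csf1r, chosen likewise, was lower (-0.57, adjusted p = 0.038; 0.0528 with the outlier spots kept). The summed signal of the macrophage list was 11.3, 11.4 and 13.1 on the neonatal and 9.74, 9.29 and 11.2 on the adult arrays. The share that blood left in the vessels has in the difference of the endothelial genes was not tested.

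The other cell types of the testis are background against which the endothelial RNA is scaled. Over all genes 13.5% were called lower and 13% higher, and 15% were called lower with outlier spots kept. At an adjusted p of at most 0.05 alone, 30.2% were higher. The spermatocyte and spermatid list had 7 of 7 tested genes higher at an adjusted p of at most 0.05 and 6 called, and its summed scaled signal went from 15.7, 13.0 and 10.1 on the neonatal to 1049, 1234 and 1440 on the adult arrays. Prm2 gave the strongest signal, and Prm2, Tnp2, Prm1 and Acrv1 had log2 ratios of 14.32, 14.18, 12.47 and 10.69. All 8 genes of that list were well above background on every neonatal array as well. Of 4 spermatogonial genes tested, 3 were called lower, namely Sall4 (-4.43), Stra8 (-2.61) and Lin28a (-2.49), and the summed signal went from 69.2, 69.0 and 72.7 to 51.1, 54.0 and 42.4 with the strongest signal from Ddx4. Ddx4, not tested because of outlier spots and shared with later germ cells, went the other way when they were kept (2.19, adjusted p = 0.000546). Gfra1 was not well above background anywhere. Sertoli cell genes were tested in 2 of 6 cases because of outlier spots, and Gata4 was called (-2.34, but -2.19 and not called without replicate 2). With outlier spots kept, all 6 were tested and 4 were called lower, with a median of -2.73. The summed signal was 65.0, 67.3 and 48.7 on the neonatal and 14.2, 10.48 and 11.1 on the adult arrays, with the strongest signal from Wt1.

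Of the interstitial and wall cells, the Leydig genes were split. Their summed scaled signal was 26.7, 28.6 and 25.5 on the neonatal and 81.2, 67.5 and 62.8 on the adult arrays, with the strongest signal from Insl3, which outlier spots left untested. Of 7 Leydig genes 4 were tested and none was called by limma, 3 with an unadjusted p of at most 0.05. With outlier spots kept, 2 of 7 were called higher, Insl3 (3.49) and Hsd3b6 (6.18). The tested genes, chosen after their values were seen, were Star (1.34, adjusted p = 0.0202) and Cyp11a1 (1.16, adjusted p = 0.00928), which were higher, Hsd3b1 (-1.04, adjusted p = 0.00998), which was lower, and Lhcgr (-0.17, adjusted p = 0.474). Among 5 tested genes of peritubular myoid cells none was called by limma, 4 had an unadjusted p of at most 0.05, and the median was -1.91. Myh11, with the strongest signal, had a log2 ratio of -2.31 (adjusted p = 0.00147), just under 5-fold. It was called with quantile normalization, the shift to the median, the authors' log2 values and normexp, down to -2.93. Actg2, chosen after its value was seen, went the other way (1.77, adjusted p = 0.056; 2.01, adjusted p = 0.0102, with the outlier spots kept), and Cnn1 was not well above background anywhere. The summed signal of that list was 21.8, 22.1 and 27.0 on the neonatal and 5.46, 4.55 and 6.71 on the adult arrays. The part that the growth of the germ cell fraction has in the difference of the endothelial genes was not tested.

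Markers of tissue beside the testis were read as well, where 13.5% of all genes were called lower. Fat markers were lower in adult testis, with Adipoq (-2.99, SE 0.19, adjusted p = 0.00139) and Plin1 (-2.36, SE 0.22, adjusted p = 0.00127) called among 3 tested, but neither after normexp (-2.30 and -1.04), and Plin1 not without replicate 2 (-2.10). Their summed scaled signal was 0.701, 2.01 and 1.28 against 0.260, 0.337 and 0.412, with the strongest signal from Cidec. Of the epididymis list, Crisp1, with the strongest signal, read 2.43, -4.34 and 2.51 on neonatal arrays 1 to 3 and -4.23, -4.37 and -5.30 on the adult arrays. Neonatal replicates 1 and 3 thus stood apart from neonatal replicate 2 in this gene. The summed signal of that list was 5.44, 0.0888 and 5.78 on the neonatal and 0.0997, 0.109 and 0.120 on the adult arrays, with none of 4 tested genes called by limma, 1 at an unadjusted p of at most 0.05 and Lcn8 not well above background anywhere. The median of the fitted log2 ratios was -0.06, with 2 of the 4 genes not well above background at 1 age. The gene at that p was Lcn9, chosen after its value was seen, which was well above background on the adult arrays alone and higher there by at least 1.95-fold (adjusted p = 0.00565), so the list had no common direction. Over the endothelial members the median difference was -1.77, -1.67 and -1.63 in pairs 1, 2 and 3. The part of fat and of epididymis in the difference of the endothelial genes was not tested.

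The promoter letters of the members are shown because 8 of the 10 genes were lower together by at least 2-fold. RefSeq promoter windows of 300 bases on GRCm38.p6 were found for 7 members, with 8 windows in all, and the table held none for Pecam1, Vwf and Cdh5. The letters CAGGAA and CCGGAA hold the core that ETS factors bind, GATAA that of GATA factors, and ACGTG and GCGTG the core of hypoxia response elements. Each was searched on both strands. CAGGAA was in 5 of the 8 member windows and in 30.6% of the 32851 windows of the table, CCGGAA in 1 and 14.9%, and GATAA in 3 and 25.4%. ACGTG was in 1 of the 8 and in 19.6% of all windows, and GCGTG in 4 and 32.4%. The ACGTG match and the GCGTG match of Vegfa both lay in its window at chr17:46025114-46025413. That window lies wholly inside the gene (chr17:46016993-46032377), and the other Vegfa window (chr17:46032328-46032627) held neither. Such matches describe letters and show no bound factor. The windows of Emcn and Vegfa, both lower by at least 2-fold, are counted but not printed. That of Flt1, which was 1.48-fold lower, is printed. The windows of Eng, Kdr, Flt1, Tek and Tie1 run along the strand of the gene, with every match in capitals on whichever strand it lies.
Eng, chr2:32646345-32646644, plus strand: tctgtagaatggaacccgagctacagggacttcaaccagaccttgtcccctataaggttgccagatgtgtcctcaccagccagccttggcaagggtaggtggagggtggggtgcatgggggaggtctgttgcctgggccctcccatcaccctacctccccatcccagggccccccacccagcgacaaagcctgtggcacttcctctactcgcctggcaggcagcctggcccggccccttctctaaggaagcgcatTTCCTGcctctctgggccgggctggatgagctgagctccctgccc
Kdr, chr5:75978406-75978705, minus strand: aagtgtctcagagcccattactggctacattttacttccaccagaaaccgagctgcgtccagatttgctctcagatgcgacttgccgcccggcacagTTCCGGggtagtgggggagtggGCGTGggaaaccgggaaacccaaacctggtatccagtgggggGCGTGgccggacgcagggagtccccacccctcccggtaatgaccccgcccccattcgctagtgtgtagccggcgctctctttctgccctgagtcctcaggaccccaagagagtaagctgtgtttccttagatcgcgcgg
Flt1, chr5:147725962-147726261, minus strand: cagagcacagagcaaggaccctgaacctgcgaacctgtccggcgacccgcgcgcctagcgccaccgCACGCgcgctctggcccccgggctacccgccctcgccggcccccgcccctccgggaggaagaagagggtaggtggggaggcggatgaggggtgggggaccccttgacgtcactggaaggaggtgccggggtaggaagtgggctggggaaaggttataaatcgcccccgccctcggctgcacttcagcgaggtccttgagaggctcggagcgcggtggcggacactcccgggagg
Tek, chr4:94739039-94739338, plus strand: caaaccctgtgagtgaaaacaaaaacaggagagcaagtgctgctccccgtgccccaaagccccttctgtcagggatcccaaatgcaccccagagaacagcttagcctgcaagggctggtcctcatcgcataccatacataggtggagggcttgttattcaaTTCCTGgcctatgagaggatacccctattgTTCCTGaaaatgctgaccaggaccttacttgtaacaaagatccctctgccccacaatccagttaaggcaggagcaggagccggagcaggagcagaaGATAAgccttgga
Tie1, chr4:118489800-118490099, minus strand: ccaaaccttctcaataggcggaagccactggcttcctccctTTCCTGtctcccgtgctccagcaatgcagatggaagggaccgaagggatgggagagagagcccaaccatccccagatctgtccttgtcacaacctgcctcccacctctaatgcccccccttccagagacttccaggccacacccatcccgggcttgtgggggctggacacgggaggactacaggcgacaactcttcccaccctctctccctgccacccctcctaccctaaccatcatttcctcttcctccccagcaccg

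Eng, Tek and Tie1 held CAGGAA on the other strand (written as TTCCTG), Kdr held CCGGAA (as TTCCGG) and GCGTG, and Flt1 held GCGTG alone (as CACGC). Tek held GATAA close to the end of its window. CAGGAA, which 30.6% of all windows hold, was thus shared by Eng, Tek and Tie1. Of these only Eng was called, and that call depended on the probe and the outlier spot. A relation of the letters to the calls was not tested.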

How the data were processed

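The authors deposited the scanner intensity of every spot (Agilent Feature Extraction 10.5.1.1) and a table of log2 values, 99.8% of which lie within 0.001 of the log2 signal with a floor of 5 less a constant for each array. The intensity was used here: spots of a probe were averaged, scaled to the 75th percentile over non-control probes, put on the log2 scale and floored. Outlier spots were set to missing, and 65 other probes were left out. Probes detected well above background on 1 array or more, with at least 2 complete pairs, were tested by limma 3.58.1 in R 4.3.3 (24517 lncRNA and mRNA probes, prior degrees of freedom 2.09), with Benjamini-Hochberg adjustment over them. The pipeline was tested on simulated data. RefSeq accessions named 97.5% of mRNA probes, and no spot was saturated. The replicate number entered as a block, since a paired test is named in the methods. Deviations from the age mean correlated at 0.53, 0.48 and 0.82 for the same number, and at 0.59 and 0.52 for other numbers on the same slide, so on slide 1 the same number correlated no more than another number, and replicate 3 is the only one on its slide. The members and lists were chosen with earlier results of these data known, so lists are described by counts and medians. Named were the members, up to 4 called genes with the largest change per list, up to 3 called against its majority, and, where none was called, the gene with the highest mean signal.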

Additional observations from a re-analysis of the deposited data

How the results depend on the processing

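Of 10 members 3 were called, and 2 with outlier spots kept, 2 with no replicate block and 2 by the mean over the probes of a gene. The count was 1 after the normexp background correction (on median spot and background intensity), 0 with no filter on dim probes (limma, 8 members at an unadjusted p of at most 0.05), 0 by a paired t-test, as named in the methods, on the values used here, before and after adjustment (5 members at that p), and 8 with a fold change of 2. Of all genes, 13.5% were called lower, 15% with outlier spots kept, 13.2% with no replicate block, 6.86% after normexp, 9.81% with no filter, 11.3% and 8.14% by the t-test before and after adjustment and 35.9% with a fold change of 2, so 2 or 1 of 10 members lie near the share of all genes. Leaving out replicates or single arrays gave 0 to 3. The counts of 0 came without replicate 1 or 2, or the neonatal array of either, where outlier spots left 3 members testable. Without adult array 1 or 2 the count was 1 of 8 testable, and without neonatal array 3 it was 2 of 10; in these 3 fits Eng was under 5-fold (-1.87, -1.63 and -1.97). With outlier spots kept, chosen after seeing the data, each left-out replicate gave 2 or 3, no replicate block gave 2, and the paired t-test, which without these spots had 2 pairs for most members, gave 2 on 3 pairs (8 at that p). At an adjusted p of at most 0.05, which all 10 members passed by limma, the t-test passed 2, Tek and Tie1, and 7 with outlier spots kept, without Vwf, Flt1 and Eng. Of the hypoxia genes, Hif3a and Egln1 were not called by the adjusted t-test.

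Over all probes 6759 were called, 6712 with no replicate block and 8795 in that fit with outlier spots kept. On the authors' log2 values 9339 were called, 5017 lower and 4322 higher, where the 6759 were 2978 lower and 3781 higher. The count was 4195 after normexp (2879 higher, against 3781 higher of 6759), 3821 with probes well above background on all 6 arrays and 14567 with a fold change of 2. Without a replicate it was 3347 to 6624, without a single array and with no block 4438 to 6797, and up to 8851 with outlier spots kept.

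Of 267 values of single members, 243 kept direction and side of the threshold, 22 lost the call, 1 gained it and Vwf reversed, to 0.29 after normexp; the cause was not tested. The median of all genes moved from -0.36 to -0.61 with quantile normalization or the shift to the median, to -0.79 on the authors' log2 values and to 0.06 after normexp. The median of the members minus that of all genes was -1.39, and between -1.58 and -1.24 in these 4 settings; over all 31 alternatives it ran from -1.75 (no filter) to -0.32 (without replicate 2, where 3 members were tested). Of 39 called list genes named, 13 were called in every alternative run.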

Other observations

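Regulators and targets of the hypoxia response, which controls Vegfa in many tissues, were split. Of 11 tested genes, 2 were called lower in adult testis and 1 higher, with a median log2 ratio of -1.80. Over all genes 13.5% were called lower and 13% higher. Hif3a fell from -1.75 ± 0.12 to -6.18 ± 0.13 (mean ± SD, n = 3), log2 ratio -4.41, SE 0.19, adjusted p = 0.000652. It had -2.76 after normexp. Egln1, a prolyl hydroxylase that marks HIF for breakdown, had -2.39 (SE 0.17, adjusted p = 0.00181) and -2.27 with outlier spots kept, which is under 5-fold. Ldha, a glycolytic target, rose with 2.69 (SE 0.14, adjusted p = 0.000979), and with 2.02 after quantile normalization, which is not a call. The summed scaled signal of the list was 55.1, 61.8 and 78.2 on the neonatal and 110, 125 and 152 on the adult arrays, with the strongest signal from Ldha. Car9 was not detected well above background.

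The list of angiogenesis inhibitors included Vash2, which is described as a promoter of vessel growth, unlike Vash1. Of its 7 tested genes, 3 were called lower in adult testis and 1 (Vash2) higher, with a median of -2.08. The shares over all genes were 13.5% lower and 13% higher. Thbs2 (thrombospondin 2), a matrix protein, fell from 1.80 ± 0.11 to -3.87 ± 0.50 (log2 ratio -5.50, SE 0.24, adjusted p = 0.000691). Col18a1, the source of endostatin, fell with -3.73 (SE 0.14, adjusted p = 0.000514), and Serpinf1 (PEDF) with -3.53 (SE 0.14, adjusted p = 0.000573). Vash2, a tubulin carboxypeptidase of the vasohibin family, went from -2.65, -2.68 and -2.25 on the neonatal arrays to 2.43, 2.54 and 2.79 on the adult arrays (log2 ratio 5.15, SE 0.14, adjusted p = 0.000305). Its relative Vash1, chosen after its value was seen, had -1.88 (adjusted p = 0.00058).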
